A study of Mus musculus with 24 samples.

Results

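Female (XX) mouse blastocysts whose mother was obese were compared directly with XX blastocysts whose father was obese. The comparison rests on 8 of the 24 arrays of the series: the 4 titled W-XX (arrays 17 to 20, obese mother) and the 4 titled M-XX (arrays 21 to 24, obese father). They were chosen by title and by the labels for parental diet and embryo sex. The 4 XX arrays of lean parents (arrays 13 to 16) serve as background. One array of the obese-father group, array 22, stood apart from the other 7, so the differences and list medians are also given without it.

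All animals were NMRI mice. From 3 weeks of age, a cohort of 7 males and females received a modified D12492 high-fat diet for 9 weeks, and a cohort of 14 received the matching control diet. At 12 weeks, high-fat animals were mated with control-diet animals, and every animal ate the control diet during mating. An obese-mother embryo therefore had a control-diet father, an obese-father embryo had a control-diet mother, and a lean-parent embryo had control-diet parents on both sides. Blastocysts were collected at 3.5 days post coitum, and each array measured the pooled lysate of 3 sex-matched blastocysts from 1 mother. "Obese" is the labels' word for the high-fat parent, and the sources used here give no body weights. Which parents the pools shared is also not given there, so the tests measure the spread between these pools. The array numbers run in blocks by group, so that an effect of processing order, if there was one, and the obese parent cannot be told apart.

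The blastocyst is the hollow embryo that forms shortly before implantation. Its outer epithelium, the trophectoderm, pumps fluid into the cavity and later contributes to the placenta, while the inner cell mass separates into epiblast, which forms the body, and primitive endoderm, which lines the yolk sac. A mother's diet can act on the growing oocyte, with its stores of RNA and mitochondria, and on the tract in which the embryo cleaves, whereas a father's diet reaches the embryo through sperm and seminal fluid. A direct comparison of both sides asks whether XX embryos differ by which parent was obese.

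No gene differed between the groups after adjustment. Values are log2 intensities, on which a difference of 1 is a doubling, and every difference is the obese-mother mean minus the obese-father mean. Of 13311 genes tested with limma, 0 had an adjusted p under 0.05, with all 8 arrays or without array 22, and the smallest adjusted p was 0.975 with all 8. An unadjusted p under 0.05 was reached by 433 genes (3.25%). Of these, 262 (1.97%) were higher with an obese mother and 171 (1.28%) were lower. At the median standard error (SE) of 0.18, the 95% interval of a difference extended 0.38 to either side, before adjustment for the number of genes.

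Array 22 had the widest signal spread of the 8, where spread is the standard deviation (SD) of all probe set values on an array. The spread was 1.40, 1.51, 1.30 and 1.38 in the obese-mother arrays 17 to 20, and 1.40, 1.81, 1.37 and 1.31 in the obese-father arrays 21 to 24. The correlation of its values with the other 7 arrays was 0.542 to 0.837, against 0.803 to 0.926 among those 7. The group means of the spread were 1.40 ± 0.09 (SD, 4 arrays) with an obese mother and 1.47 ± 0.23 (SD, 4 arrays) with an obese father, and an exact two-sided permutation test gave p = 0.771. Without array 22 the obese-father mean was 1.36 ± 0.05 (SD, 3 arrays).

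Leaving out array 22 turned much of the picture around. The share of tested genes with a difference above 0 was 55.5% with 8 arrays and 47.0% with 7. A difference under -1 was held by 44 genes and one over 1 by 1 gene with 8 arrays, against 7 and 24 genes with 7 arrays. That 1 gene, chosen after its values were seen, was the microRNA gene Mir680-2, with a difference of 1.12 (SE 0.57, 0.87 without array 22). The number of genes with an unadjusted p under 0.05 was 145 higher (1.09%) and 207 lower (1.56%) without array 22. Of the 433 genes, 127 also passed in the same direction without it (77 higher and 50 lower), and 0 passed in the opposite direction. Other arrays moved these counts as well. The higher genes numbered 149 without array 19, 410 without array 18 and 568 without array 24, and the lower genes numbered 315, 351 and 359 without arrays 21, 23 and 24. The higher genes made up 60.5% of those with an unadjusted p under 0.05, 47.0% when each array was centred on its median, and 47.4% when the fit held the signal spread of each array.

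**Figure D1:**
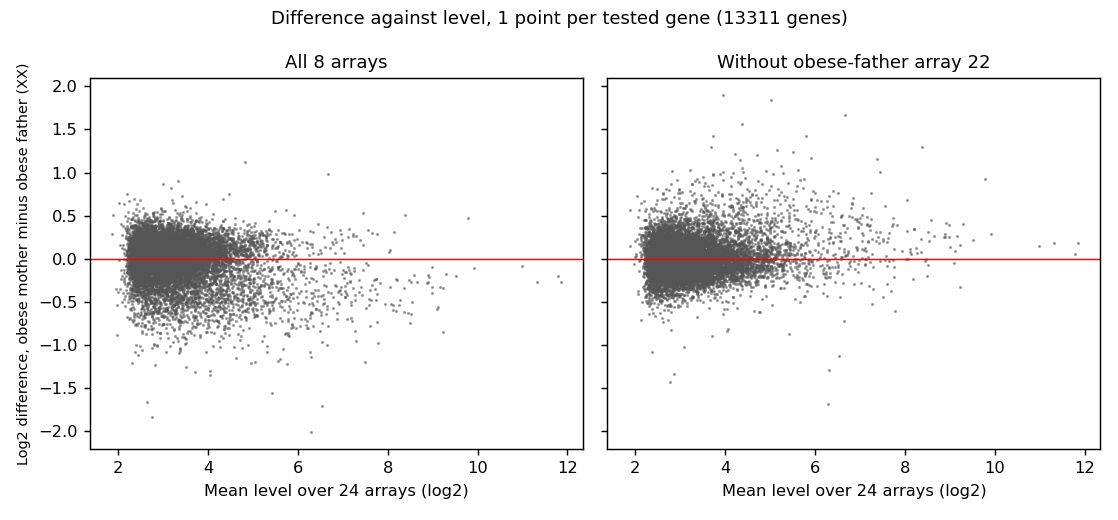
Difference between the groups (vertical axis, log2, obese mother minus obese father) against mean level over 24 arrays (horizontal axis, log2), with 1 point for each of 13311 tested genes, for all 8 arrays (left) and without obese-father array 22 (right). With 8 arrays the tail of large differences points down (44 genes under -1, 1 over 1), and without array 22 it points up (7 under -1, 24 over 1).

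The sex of the embryos could be checked only in part. Eif2s3y, a Y-linked translation factor gene expressed from early cleavage, lay between 1.10 and 1.67 in the 8 arrays, and 10 of the 12 XY arrays of the series lay above all 8. Xist, the RNA that coats and silences 1 X chromosome in female cells, read 3.19, 3.22, 2.05 and 3.01 with an obese mother and 2.40, 2.79, 2.11 and 2.39 with an obese father. The groups overlapped, and an exact two-sided permutation test gave p = 0.2 (0.579 adjusted over 9 sex-linked genes). The lowest Xist value was on obese-mother array 19. The Y-linked gene Zfy2 averaged 1.60 ± 0.27 (SD, 4 arrays) with an obese mother and 1.12 ± 0.14 (SD, 4 arrays) with an obese father. Its exact two-sided permutation p was 0.0286, the smallest this design allows, and 0.257 adjusted over the same 9 genes. The 366 tested X-linked genes had a median difference of 0.01 (0.00 without array 22), beside 0.03 (-0.01) over all genes.

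The 30 genes with the smallest unadjusted p were mostly dim, like most tested genes, and their groups were close. The median level of the 433 genes was 2.90 for the higher ones and 2.93 for the lower ones, beside 3.03 over all tested genes. A mean level below 4 was found for 14 of the 15 named in each direction. That is near the background, since the brightest of 4 equal parts of all tested genes began at 3.58. Some of the 30 read below 2.56, the median of all array values that the filter used, in every array of 1 group. Among them were Gask1a, Med31, Cdkn2aipnl, Pms1 and Adam17 with an obese mother, and Cracr2b with an obese father. For Cdkn2aipnl and Pms1 all 4 obese-father arrays lay above 2.56, which alone is enough to pass the filter. By the limma test all 30 kept an unadjusted p under 0.05 in the same direction without array 22. The groups did not overlap in 7 of the 15 higher and 10 of the 15 lower genes, where the background over all tested genes was 0.917% higher and 0.684% lower. These genes were picked by that same test, so their counts describe them and support nothing.

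Among the genes higher with an obese mother, Tyms encodes thymidylate synthase, which makes the thymidine nucleotide for DNA replication. It read 4.91, 4.52, 4.80 and 4.50 in the obese-mother arrays and 3.65, 4.57, 3.89 and 3.84 in the obese-father arrays. The difference was 0.70 (SE 0.21, unadjusted p = 0.00345 by limma), and array 22 was the only obese-father array to reach the obese-mother range. Without it the difference was 0.89 (unadjusted p = 0.000253 by limma). The lean-parent arrays read 4.35, 4.85, 4.15 and 4.29, all above the obese-father mean.

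Gpr142, a G protein-coupled receptor for aromatic amino acids in pancreatic islets, read 3.44, 3.05, 3.44 and 3.36 with an obese mother and 2.85, 2.25, 2.90 and 2.93 with an obese father. Its groups did not overlap, and the difference was 0.59 (SE 0.16), or 0.43 without array 22. Slc39a5, a zinc importer, read 3.80, 3.53, 3.66 and 3.54 against 3.39, 2.92, 3.42 and 3.11. Its difference was 0.42 (0.32 without array 22), and the lean-parent arrays (3.69 to 3.85) lay with the obese-mother arrays, above every obese-father array. Cracr2b, a regulator of store-operated calcium entry, read 2.83, 2.62, 2.98 and 2.61 against 2.11, 2.45, 2.29 and 2.31, a difference of 0.47 (0.52 without array 22). For Cracr2b the lean-parent arrays, from 2.64 to 3.03, again lay with the obese-mother group.

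The other higher genes differed by 0.34 to 0.68, and the second value given for each is the difference without array 22. They included Ephb6 (0.53 and 0.45), an ephrin receptor without kinase activity, Slpi (0.53 and 0.48), a secreted inhibitor of leukocyte proteases, and Alg12 (0.44 and 0.39), a mannosyltransferase of protein glycosylation. Pex6 (0.36 and 0.29), an ATPase that recycles the peroxisomal import receptor, and Cetn4 (0.68 and 0.69), a centrin of the centriole, were among them too. The remaining ones were Ptar1 (0.43 and 0.40), Tmem198b (0.34 and 0.28), Olfr796 (0.59 and 0.41), Crct1 (0.52 and 0.42), Meak7 (0.41 and 0.33) and the microRNA gene Mir211 (0.49 and 0.44).

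Among the genes lower with an obese mother, Rnaseh2a encodes the catalytic subunit of the enzyme that removes ribonucleotides from DNA. It read 2.89, 2.91, 3.06 and 2.76 with an obese mother and 3.19, 4.31, 3.33 and 3.45 with an obese father. All obese-father arrays lay above all obese-mother arrays, with array 22 highest, and the difference was -0.66 (SE 0.18, unadjusted p = 0.00125 by limma) or -0.42 without that array. Med31, a subunit of the Mediator complex that links transcription factors to RNA polymerase II, read 1.83, 2.06, 2.28 and 2.48 against 3.15, 4.62, 2.80 and 2.55. Its difference of -1.12 was -0.67 without array 22, and 2 of its 4 lean-parent arrays (1.94 to 2.58) lay above the obese-mother range. Mrps7, a protein of the small mitochondrial ribosomal subunit, read 3.16, 3.35, 2.99 and 3.25 against 3.87, 4.71, 3.95 and 3.45, a difference of -0.81 (-0.57 without array 22).

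For Gask1a, Vps51 and Clic1 array 22 was not the highest obese-father array. Gask1a read 2.20, 1.97, 1.85 and 1.81 with an obese mother and 2.35, 2.35, 2.71 and 2.75 with an obese father. Its difference was -0.58 (-0.64 without array 22), and all its obese-mother values lay below the filter median of 2.56. Vps51, a subunit of complexes that tether vesicles returning from endosomes, read 2.52, 2.61, 2.50 and 2.38 against 2.81, 2.70, 2.91 and 3.0, a difference of -0.35 (-0.41 without array 22). The lean-parent arrays of Vps51 (2.82 to 3.07) lay with the obese-father group. Clic1, an intracellular chloride channel protein, read 2.25, 2.57, 2.64 and 2.75 against 2.93, 2.97, 3.03 and 3.34, a difference of -0.52 (-0.55 without array 22), and its lean-parent arrays (2.55 to 2.68) lay with the obese-mother group.

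Exo1 (-0.63, and -0.46 without array 22), an exonuclease that acts in mismatch repair, and Pms1 (-0.47 and -0.43), a MutL-family mismatch repair protein, were also among the lower genes. The list of DNA repair genes, which holds neither of them, had a median difference of -0.01 (-0.03 without array 22) over 21 tested members. Of these, 0 had an unadjusted p under 0.05 by limma, beside 3.25% of all tested genes. The remaining lower genes were Slc1a1 (-0.67, and -0.44 without array 22), Cdkn2aipnl (-0.80 and -0.74), Brd2 (-0.63 and -0.46), Pqbp1 (-0.55 and -0.34), Eci2 (-0.53 and -0.47), Sel1l (-0.47 and -0.50) and Adam17 (-0.42 and -0.34). Of these, Brd2 is a reader of acetylated histones, Eci2 an enzyme of fatty acid oxidation, Sel1l a component of endoplasmic reticulum protein disposal and Adam17 a protease that sheds growth factors from the cell surface.

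**Figure D2:**
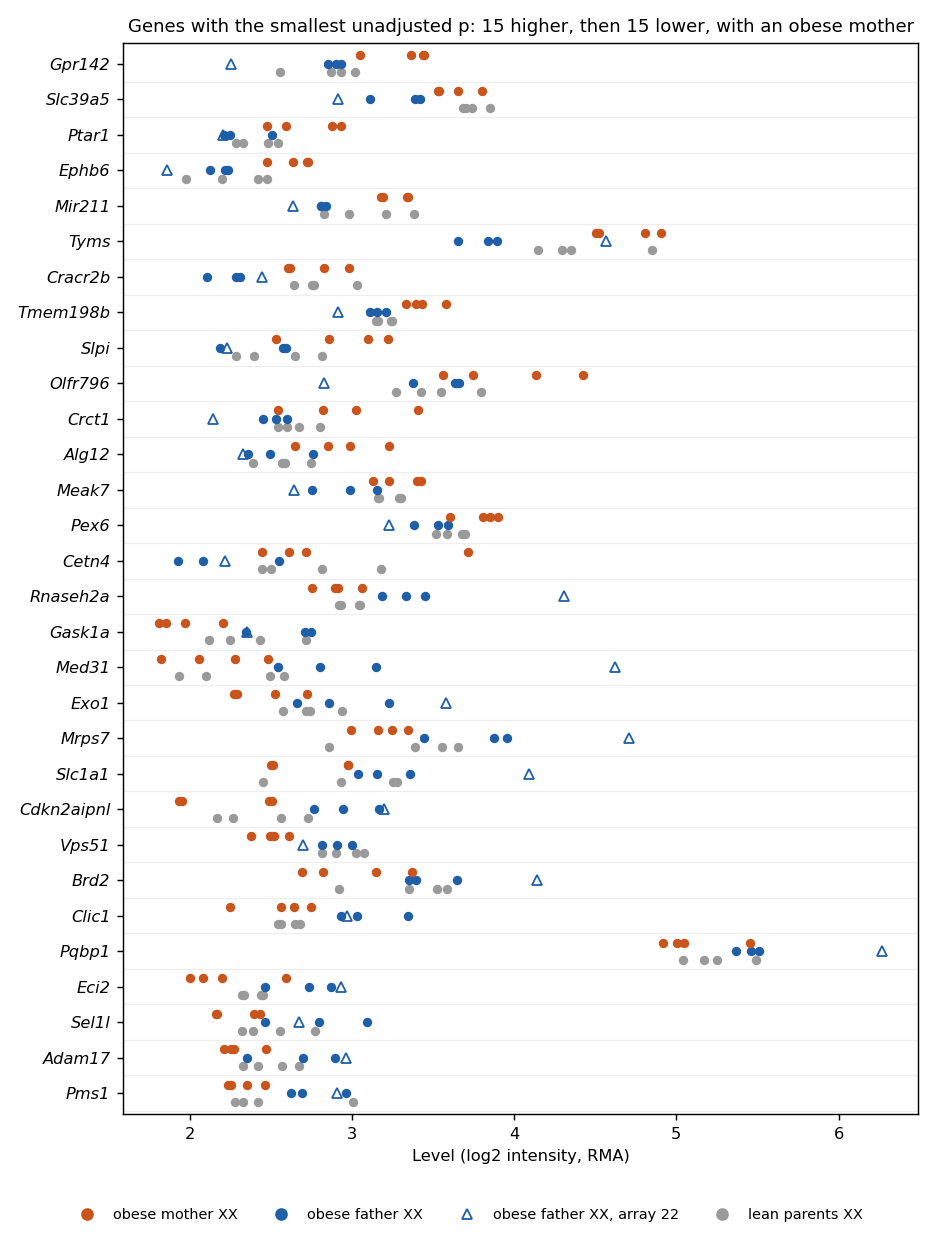
Levels of the 30 genes with the smallest unadjusted p (log2, horizontal axis), with 1 point per array: obese mother (orange), obese father (blue, array 22 as an open triangle) and lean parents (grey). The first 15 genes were higher and the last 15 lower with an obese mother, and the groups did not overlap in 7 and 10 of them.

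Of the 124 microRNA genes tested, 4 reached an unadjusted p under 0.05 by limma, all higher with an obese mother. Over all tested genes 1.97% were higher at that p, and 3.25% passed in either direction. Without array 22, 2 microRNA genes were higher and 1 lower at that p, beside 1.09% and 1.56% of all tested genes. MicroRNAs are short RNAs that lower the output of messenger RNAs with which their seed (bases 2 to 8) pairs. The mature sequences of both arms of the 4 genes are shown, as RefSeq (GRCm38.p6) gives them, because the seed is what related microRNAs share. The seed is in capitals.
mmu-miR-211-5p: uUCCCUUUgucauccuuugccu
mmu-miR-211-3p: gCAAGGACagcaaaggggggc
mmu-miR-345-5p: gCUGACCCcuaguccagugcuu
mmu-miR-345-3p: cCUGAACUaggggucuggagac
mmu-miR-449a-5p: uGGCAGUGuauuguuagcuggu
mmu-miR-449a-3p: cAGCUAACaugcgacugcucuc
mmu-miR-210-5p: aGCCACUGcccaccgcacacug
mmu-miR-210-3p: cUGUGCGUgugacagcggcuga

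None of these 8 arms shares its seed with another of the 8. The seed of miR-211-5p is also that of miR-204-5p and miR-7670-3p, and the seed of miR-449a-5p is also that of miR-34a-5p, miR-34b-5p and miR-449c-5p. The probe sets are annotated to the gene, and a short mature form and its precursor cannot be told apart from these values. Of all tested microRNA genes, 104 matched an entry of the sequence table.

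Mir211 (chr7:64205806-64205911, plus strand, inside Trpm1) read 3.34, 3.18, 3.19 and 3.34 with an obese mother and 2.81, 2.64, 2.84 and 2.81 with an obese father. Its groups did not overlap, as in 0.917% of all tested genes in this direction. The difference was 0.49 (SE 0.15), or 0.44 without array 22. Its host gene Trpm1, a cation channel gene, differed by -0.01 (-0.09 without array 22). Mir345 (chr12:108836973-108837068, plus strand) read 3.80, 3.91, 3.98 and 3.76 against 3.58, 3.04, 3.74 and 3.31, again without overlap, a difference of 0.44 (0.32 without array 22). Mir449a (chr13:113037534-113037624, plus strand, inside Cdc20b) read 3.20, 3.23, 2.94 and 2.75 against 2.77, 2.31, 2.62 and 2.24, with overlapping groups and a difference of 0.55 (0.49 without array 22). Its host gene Cdc20b differed by 0.03 (-0.15 without array 22). Mir210 (chr7:141221384-141221493, minus strand), a microRNA known for its induction by low oxygen, read 5.33, 5.16, 5.55 and 5.24 against 5.11, 4.57, 5.19 and 5.20. Its difference was 0.30 with all arrays and 0.15 without array 22, the lowest array for all 4 genes except Mir449a, where array 24 was lower.

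MicroRNA genes as a list lay above 0 in 100 of 124 tested members, with a median difference of 0.15. That median was -0.00 without array 22, with 59 members above 0. The mean of the list was 3.80, 3.71, 3.83 and 3.73 in the obese-mother arrays and 3.70, 3.23, 3.72 and 3.80 in the obese-father arrays. Array 22 alone was low.

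Markers of the blastocyst lineages were measured in all 8 arrays, and the keratins and Pou5f1 were among the brighter genes. In pooled embryos, fewer cells of a lineage and less RNA per cell cannot be told apart. Of the 34 trophectoderm markers tested, 26 had a difference below 0, with a median of -0.12. Over all tested genes 44.5% had a difference below 0, the share to set beside such counts for every list. An unadjusted p under 0.05 by limma was reached by 0 of the 34, beside 3.25% of all tested genes. Without array 22 the median was -0.03. Cdx2, the transcription factor that sets trophectoderm fate, read 4.14, 4.52, 4.12 and 4.32 with an obese mother and 4.52, 6.17, 3.96 and 4.58 with an obese father. The groups overlapped, and the difference of -0.53 (SE 0.41) was -0.08 without array 22. Krt18, a keratin of the outer epithelium, read 5.80, 6.52, 4.82 and 6.34 against 6.20, 8.35, 6.01 and 6.04, and its difference was -0.78 (-0.22 without array 22). Krt8, the partner keratin of Krt18, differed by -0.38 with array 22 and by 0.20 without it, and Gata3 differed by -0.13 and -0.03.

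Genes of tight junctions and cavity formation had a median difference of -0.24 over 24 tested members (0.05 without array 22). Atp1b3, a subunit of the sodium pump family that drives fluid into the cavity, read 2.35, 2.30, 1.94 and 2.28 with an obese mother and 2.22, 4.09, 2.64 and 3.40 with an obese father. The groups overlapped through array 21, and the difference was -0.87 (SE 0.31), or -0.54 without array 22. Dsc2, a desmosomal cadherin, differed by -0.59 (-0.21 without array 22).

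Of the inner cell mass and epiblast markers, 18 of 29 had a difference below 0 and 1 in each direction had an unadjusted p under 0.05 by limma, beside 1.97% higher and 1.28% lower over all tested genes. Without array 22 the list had 1 higher and 0 lower at that p, and its median went from -0.06 to -0.03. Nanog, a transcription factor of the epiblast, read 4.37, 4.55, 4.67 and 4.72 with an obese mother and 4.77, 6.04, 4.83 and 4.90 with an obese father. All obese-father arrays lay above all obese-mother arrays, as in 0.684% of all tested genes. The difference was -0.56 (SE 0.26, unadjusted p = 0.0404 by limma) and -0.26 (unadjusted p = 0.253 by limma) without array 22, and the lean-parent arrays (4.57 to 4.70) lay within the obese-mother range. Spry4, an inhibitor of FGF signalling, read 3.65, 2.98, 2.81 and 2.98 against 2.86, 2.65, 2.65 and 2.37, with array 21 in the obese-mother range and a difference of 0.47 (0.48 without array 22). Pou5f1, needed for the identity of the inner cell mass, read 5.65, 7.33, 5.40 and 5.52 against 6.44, 8.0, 5.16 and 4.52. With so wide a spread within both groups its difference was -0.06 (SE 0.73), and 0.60 without array 22. Sox2, which acts with Pou5f1, differed by -0.44 (-0.02 without array 22).

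Primitive endoderm markers had a median difference of -0.03 (0.01 without array 22) over 22 tested members. Hnf4a, a transcription factor of endoderm and liver, read 3.44, 3.70, 4.00 and 3.49 with an obese mother and 3.15, 3.01, 3.45 and 3.15 with an obese father. The groups overlapped only at arrays 17 and 23, and the difference was 0.47 (SE 0.16, unadjusted p = 0.00681 by limma), or 0.41 without array 22. Gata6, the factor that starts this lineage, differed by -0.19 (0.13 without array 22), Gata4 by 0.09 (0.10), Sox17 by -0.03 (-0.13) and Pdgfra, the receptor that marks it, by -0.14 (-0.0089). With all arrays none of these 4 had an unadjusted p under 0.05 by limma.

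**Figure D3:**
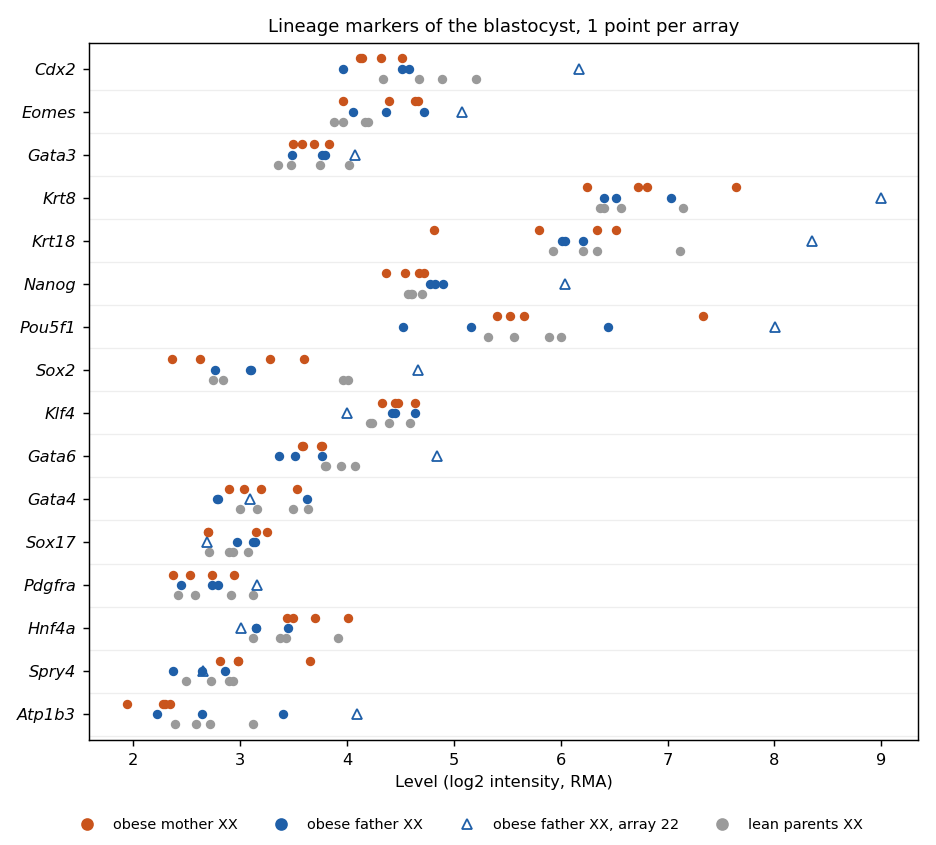
Levels (log2, horizontal axis) of 16 lineage and cavity genes with 1 point per array, coloured as obese mother (orange), obese father (blue, array 22 as an open triangle) and lean parents (grey). Array 22 lies to the right of all other arrays for Cdx2, Krt8, Krt18, Nanog, Pou5f1, Sox2, Gata6 and Atp1b3, and to the left for Klf4 and Hnf4a.

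The 10 broad lists furthest from the median of all genes included those of protein synthesis and mitochondrial energy production, and the medians of all 10 were lower with an obese mother when array 22 was kept. Their order by distance was translation factors, the CCT chaperonin (which folds actin and tubulin), cytosolic ribosomal proteins, X-inactivation and escape genes, and respiratory complex I. The tricarboxylic acid cycle, respiratory complexes II to V, ribosome biogenesis, the proteasome and the tight junction list had medians between -0.33 and -0.24. Each of these 10 medians was above 0 without array 22. In a fit that holds each array's spread as a covariate they were nearer to 0 or above it: -0.08 for translation factors, 0.11 for the CCT chaperonin, 0.07 for ribosomal proteins, -0.015 for X-inactivation and escape genes and -0.06 for complex I. In that fit the tricarboxylic acid cycle stood at -0.08, complexes II to V at -0.03, ribosome biogenesis at -0.05, the proteasome at -0.0003 and tight junctions at -0.06.

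Of the 59 tested cytosolic ribosomal protein genes, 53 had a difference below 0, beside 44.5% of all tested genes, with a median of -0.40. The mean of the list read 6.81, 7.34, 5.87 and 6.67 with an obese mother and 7.03, 8.58, 6.66 and 5.92 with an obese father. Without array 22 the median was 0.16. Rplp0, a protein of the ribosomal stalk, had the lowest difference of the list, at -2.01 (SE 0.78), and read 6.38, 6.33, 3.76 and 5.94 against 6.47, 8.59, 6.58 and 8.83. Obese-father arrays 22 and 24 were high and obese-mother array 19 was low, and the difference was -1.69 without array 22. Ribosomal protein genes have many near-identical copies, so their probe sets may read more than 1 gene.

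Translation factors had 32 of 35 members below 0 and a median of -0.46 (0.14 without array 22). The mean of the list was 4.78, 5.31, 4.09 and 4.72 with an obese mother and 4.87, 6.95, 4.55 and 4.25 with an obese father. Array 22 stood more than 1 unit above every other array. Eif1b, a factor of start codon selection, differed by -0.70 (-0.22 without array 22), and 1 of the 35 members had an unadjusted p under 0.05 by limma, beside 3.25% of all tested genes. All 8 CCT chaperonin subunits were below 0, with a median of -0.46, and 7 of 8 were above 0 without array 22, with a median of 0.28.

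Respiratory complexes II to V had 36 of 38 members below 0 and a median of -0.33 (0.12 without array 22). The mean of the list was 5.71, 6.05, 4.95 and 5.68 with an obese mother and 5.63, 7.46, 5.70 and 5.01 with an obese father. Cox7a2, a subunit of cytochrome c oxidase, read 4.04, 4.76, 3.21 and 3.73 against 4.90, 6.70, 4.56 and 4.17, a difference of -1.15 (SE 0.43). It was -0.61 without array 22. With all arrays the lean-parent arrays, from 4.57 to 4.78, lay between the means of both groups (3.93 and 5.08). Without array 22 the obese-father mean was 4.54, and they lay above both means. Complex I had 31 of 35 members below 0, with a median of -0.34 (0.06 without array 22). Of its members, 0 had an unadjusted p under 0.05 by limma, beside 3.25% of all tested genes. The mitochondrially encoded transcripts measured, ND3 and COX2, differed by -0.20 and -0.09 (0.22 and 0.15 without array 22).

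The other lists far from the median of all genes held single genes with wider gaps. Of the 46 proteasome genes tested, 38 were below 0 (median -0.28, 0.15 without array 22). Psmd9, an assembly chaperone of the proteasome, read 2.55, 2.88, 2.85 and 2.86 with an obese mother and 3.78, 3.99, 3.14 and 2.75 with an obese father. Array 24 alone of the obese-father arrays lay in the obese-mother range, and the difference was -0.63 (-0.44 without array 22). Ribosome biogenesis genes were below 0 in 35 of 45 tested members (median -0.29, 0.10 without array 22), with Nop2 at -0.39 (-0.29) and Nop16 at 0.48 (0.59). Both act in the assembly of the large ribosomal subunit.

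In the tricarboxylic acid cycle list 23 of 26 tested genes were below 0 (median -0.32, 0.05 without array 22). Glud1, which feeds glutamate into the cycle, differed by -0.99 (-0.62 without array 22). X-inactivation and escape genes split into 6 above and 7 below 0, with a median of -0.34 (0.16 without array 22). Utp14a, an X-linked gene of ribosome biogenesis, had the lowest difference of that list at -0.74 (-0.25 without array 22), and read 3.45, 2.38, 2.21 and 2.26 against 3.29, 4.78, 2.79 and 2.40. Obese-mother array 17 and obese-father array 22 were its high arrays.

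**Figure D4:**
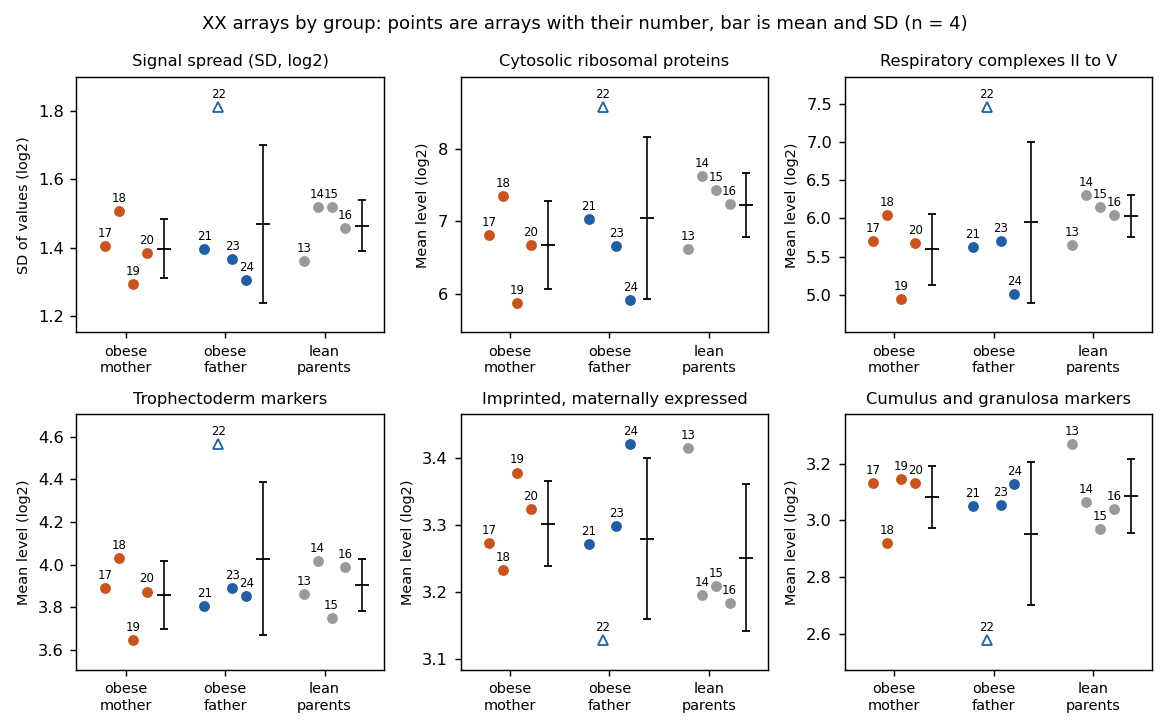
Signal spread (SD of all values, log2) and the mean level (log2) of 5 gene lists on each XX array, with the array number above each point and the group mean ± SD (4 arrays) as a black bar. Array 22 (open triangle) is highest for the spread, ribosomal proteins, respiratory complexes and trophectoderm, and lowest for both remaining lists, while the other arrays of the 3 groups overlap.

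Nutrient and stress genes gave single genes in both directions. Of the glycolysis list, 17 of 24 tested members lay below 0 (median -0.11, 0.15 without array 22). Pdk3, a kinase that shuts off pyruvate dehydrogenase, read 2.57, 2.84, 3.15 and 2.58 with an obese mother and 2.87, 2.19, 2.29 and 2.19 with an obese father, with array 21 in the obese-mother range and a difference of 0.40 (0.33 without array 22). Slc2a1, the main glucose transporter of the embryo, read 3.42, 3.38, 3.56 and 3.76 against 3.22, 3.27, 3.27 and 3.08. Its groups did not overlap, as in 0.917% of all tested genes in this direction. Its difference was 0.32 (SE 0.17, 0.34 without array 22), which did not reach an unadjusted p under 0.05 by limma. Slc7a3, a cationic amino acid transporter, read 2.90, 2.43, 3.20 and 2.76 against 1.94, 2.04, 2.02 and 2.76, with array 24 alone reaching the obese-mother range, and differed by 0.64 (0.59 without array 22). Asns, asparagine synthetase, differed by -0.68 (-0.32 without array 22), in the opposite direction.

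Mdm4, an inhibitor of p53, read 2.04, 2.70, 2.42 and 1.96 with an obese mother and 1.63, 1.89, 1.55 and 1.46 with an obese father. All of these values except 2.70 lay below the median of all array values (2.56) that the filter used, so the gene was dim here. Its groups did not overlap, as in 0.917% of all tested genes in this direction. The difference was 0.65 (0.73 without array 22). The p53 and apoptosis list had a median of -0.02 (0.01 without array 22). Twnk, the helicase of mitochondrial DNA replication, read 2.64, 3.06, 2.84 and 2.89 against 2.35, 2.39, 2.48 and 2.69, with array 24 in the obese-mother range and a difference of 0.38 (0.35 without array 22). Of its list of mitochondrial biogenesis and dynamics, 22 of 29 members were below 0 (median -0.17), and without array 22 23 of 29 were above 0 (median 0.11). Fatty acid oxidation genes had a median of -0.15 (-0.04 without array 22), and Acaa2, a thiolase of that pathway, differed by -0.61 (-0.33). Lipid synthesis and cholesterol synthesis lists had medians of -0.01 and 0.03 (-0.03 in each without array 22).

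Imprinted genes, which are expressed from 1 parental copy, lay at the median of all genes. Maternally expressed ones had a median of 0.03 over 20 tested members and paternally expressed ones 0.01 over 19, with -0.03 in each list without array 22. None of them had an unadjusted p under 0.05 by limma with 8 arrays, beside 3.25% of all tested genes. Without array 22, 1 maternally expressed gene was higher and 2 were lower at that p, beside 1.09% and 1.56% of all tested genes. For paternally expressed genes both counts were 0. Osbpl5, a maternally expressed gene and 1 of the lower ones, differed by -0.22 (-0.28 without array 22). Igf2, a growth factor gene expressed from the father's copy, differed by -0.06 (-0.30 without array 22), and Peg3 by -0.20 (-0.29). Igf2r, which clears that growth factor, read 3.49, 3.62, 3.52 and 3.77 with an obese mother and 3.23, 4.84, 2.87 and 3.35 with an obese father, a difference of 0.03. Without array 22 the groups did not overlap, as in 1.95% of all tested genes in this direction, and the difference was 0.45 (unadjusted p = 0.00649 by limma).

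DNA methylation genes had 14 of 21 members below 0, a median of -0.18, and 2 with an unadjusted p under 0.05 by limma, both lower, beside 1.28% of all tested genes in that direction. Without array 22 the median was 0.07, 12 members were above 0 and 0 had an unadjusted p under 0.05. Dnmt1, the enzyme that copies methylation at replication, read 2.90, 3.10, 2.82 and 3.08 with an obese mother and 3.03, 3.73, 3.27 and 3.35 with an obese father. The groups overlapped through array 21, and the difference was -0.37 (SE 0.15), or -0.24 without array 22. Dnmt3l, a cofactor of new methylation, differed by -0.51 (-0.20 without array 22), Dnmt3a by -0.28 (-0.19) and Dnmt3b by -0.31 (-0.09). Ctcfl, also on this list, differed by 0.31 (0.24 without array 22), in the opposite direction.

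The germline and homeobox genes of the X chromosome had a median of 0.19 (0.27 without array 22) over 8 tested members, and small nucleolar RNAs, which guide RNA modification, had 0.09 (0.11) over 25. Neither list had a member with an unadjusted p under 0.05 by limma, beside 3.25% of all tested genes. Of the 45 lists with at least 5 tested members, 30 had a median below 0 and 15 above 0. Without array 22, 20 of the 30 were above 0 and 11 of the 15 were below 0. Array 22 had the highest list mean of the 8 arrays in 31 lists, the lowest in 10 and neither in 4.

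**Figure D5:**
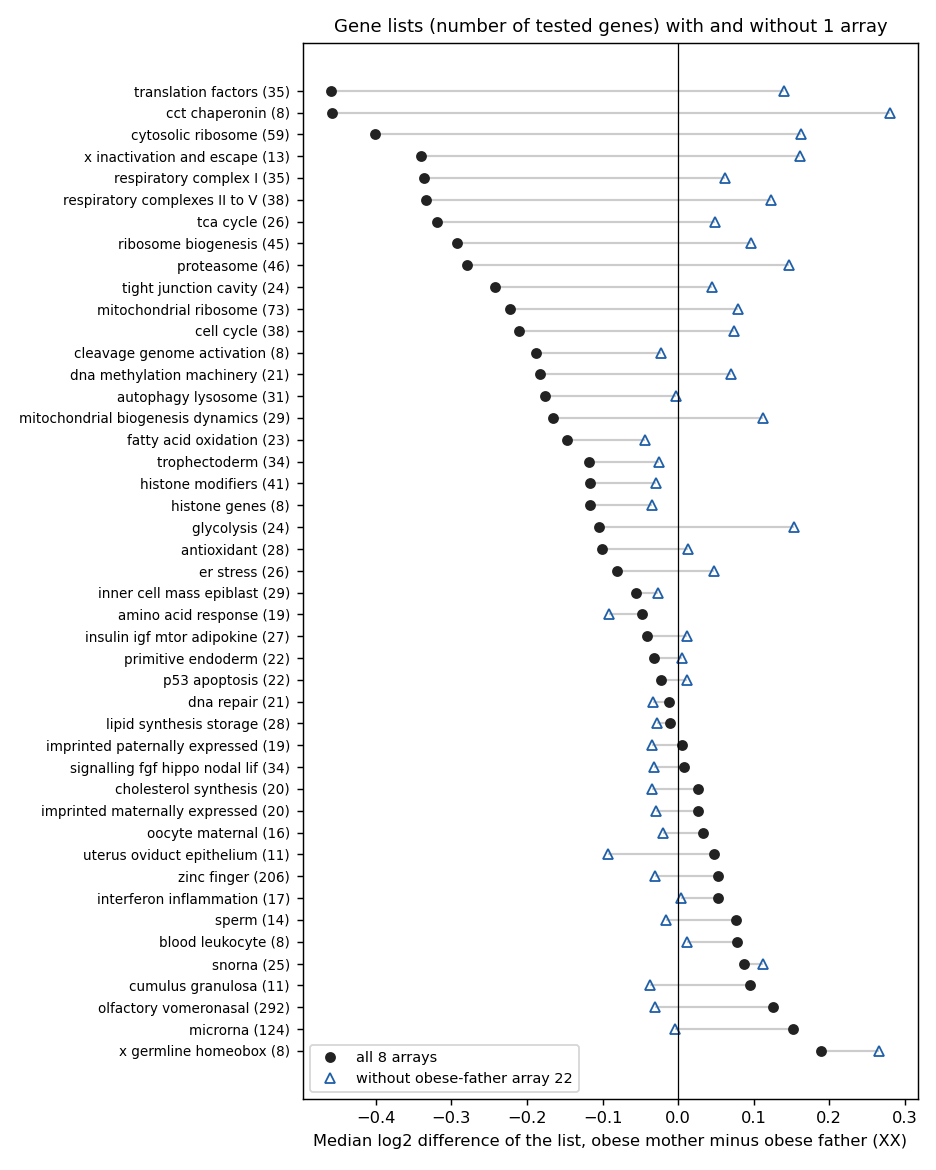
Median log2 difference of 45 gene lists (horizontal axis, obese mother minus obese father), with all 8 arrays (filled circles) and without obese-father array 22 (open triangles), the number of tested genes in parentheses. The medians run from -0.46 to 0.19 with array 22 and from -0.09 to 0.28 without it, and 31 of the 45 change sign.

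Cells that could accompany a blastocyst were checked through marker lists. Cumulus and granulosa markers had a median difference of 0.10 over 11 tested of 16 measured genes (-0.04 without array 22), blood and leukocyte markers 0.08 over 8 of 17 (0.01), sperm markers 0.08 over 14 of 21 (-0.015) and uterine and oviduct markers 0.05 over 11 of 16 (-0.09). The cumulus list averaged 2.92 to 3.14 in the obese-mother arrays and 2.58 to 3.13 in the obese-father arrays, with array 22 lowest. The median level of the tested members was 2.75 for cumulus, 2.74 for blood, 3.06 for sperm and 3.20 for uterine and oviduct markers, beside 3.03 over all tested genes. Their part in any other difference was not tested.

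The same contrast was set against XY embryos in 1 model, which asks whether the gap between an obese mother and an obese father depended on the embryo's sex. For 0 of 13311 genes did that difference of differences have an adjusted p under 0.05 by limma (smallest 0.9995), and 358 (2.69%) had an unadjusted p under 0.05. Most of the genes described were named by their XX difference, which is also part of this contrast. For them a gap in the same direction is partly built in by that choice, so the values below are description only. Among the genes described, the XX difference exceeded the XY difference by 1.11 for the dim gene Mdm4 (SE 0.33, 1.19 without array 22), by 0.66 for Hnf4a (SE 0.22, 0.61 without it) and by 0.63 for Mir211 (SE 0.21, 0.59 without it). For Clic1 it was below by -0.79 (SE 0.23, -0.83 without array 22) and for Gask1a by -0.77 (SE 0.22, -0.83 without it). For Tyms the gap between sexes was 0.52 (SE 0.30, 0.72 without array 22) and for Nanog -0.38 (SE 0.36, -0.08 without it).

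Leaving out any 1 of the other arrays left the count of called genes at 0, except obese-father array 23. Without that array 1 gene passed by limma: Lgalsl, a galectin-like protein gene, at -1.20 (SE 0.17, adjusted p = 0.0124). With all arrays kept, the smallest adjusted p of any gene was 0.975 by limma. Lgalsl was named after its values were seen, so its result is description only.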

How the data were processed

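Blastocyst RNA was measured on Affymetrix arrays, 4 per group in 6 groups. The deposited table holds log2 values of 35556 probe sets, which the authors made with RMA and affy (per the submitters' processing notes, without versions). Probe sets with 1 gene symbol in the platform annotation (21789) were kept, and the set with the highest mean stood for each of 19938 genes. Genes above the table's median (2.56) in at least 4 of the 24 arrays were tested (13311), and 6627 were left out. All groups were fitted together in limma 3.58.1 (R 4.3.3, lmFit and eBayes), with Benjamini-Hochberg adjustment over all tested genes and a threshold of 0.05. The code was tested on simulated data with known differences. Single values were compared by exact permutation, where 4 arrays against 4 allow no p below 0.0286. The number of arrays limits the precision.

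The comparison and the 47 gene lists were chosen with earlier results of these data known. Because fewer than 10 genes passed, the genes named are 15 in each direction, taken by smallest unadjusted p (uninformative names left out), up to 4 members per list with the smallest p, and a fixed set of lineage, imprinted and control genes. Mir680-2 and Lgalsl were named after their values were seen. H19 and Snrpn have no probe set with 1 symbol, and Ppargc1a was too dim to test. Alternatives were other filters, probe set means, other normalizations, array weights, a trended prior, smaller fits, the signal spread as a covariate, and each array left out. A fit with both that covariate and array 22 left out was added after seeing the data.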

Additional observations from a re-analysis of the deposited data

Results flagged for a closer look

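In groups of 4 arrays, an array was singled out where its gap to the nearest other array exceeded Dixon's critical share of the group's range. Chance alone singles out about 1 in 20 groups. In the obese-father group array 22 was the highest array for the mean of 17 lists, and the gap shares were 0.992 for DNA methylation, 0.953 for lipid synthesis and storage, 0.946 for the tricarboxylic acid cycle, 0.942 for X-inactivation and escape genes and 0.921 for the cell cycle. They were 0.902 for ribosome biogenesis, 0.902 for autophagy and lysosome genes, 0.891 for trophectoderm, 0.880 for histone modifiers, 0.877 for the mitochondrial ribosome and 0.868 for antioxidant genes. They were 0.867 for mitochondrial biogenesis, 0.860 for fatty acid oxidation, 0.858 for the inner cell mass, 0.855 for histone genes, 0.848 for the proteasome and 0.833 for endoplasmic reticulum stress. Array 22 was the lowest for cumulus and granulosa markers (0.858) and for olfactory and vomeronasal receptors (0.830). Its part in the difference between the groups is given by the values without it.

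Among genes of the obese-father group, array 22 was the highest for Krt18 (0.916), Nanog (0.902), Eif1b (0.894) and Pqbp1 (0.840), and the lowest for Gpr142 (0.880) and Mir210 (0.855). Array 24 was the highest for Slc7a3 (0.877) and Ptar1 (0.860), and array 21 for Pdk3 (0.846). In the obese-mother group array 18 was the lowest for the cumulus and granulosa list (0.939) and the blood and leukocyte list (0.886) and the highest for Pou5f1 (0.869). Array 17 was the highest for Utp14a (0.864) and the lowest for Psmd9 (0.904). Array 19 was the lowest for Rplp0 (0.832) and Atp1b3 (0.831). No cause was tested for any of them. The number of genes screened is not given here. The genes singled out therefore cannot be compared with the chance rate stated above, and their values are description only.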

How the results depend on the processing

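The count of genes with an adjusted p under 0.05 was 0 under every alternative run with limma, except that leaving out single arrays gave 0 to 1 genes. Counts at an unadjusted p under 0.05 moved by more than 1.5 times under some alternatives. The higher genes (262 of 13311) numbered 124 with both groups fitted alone, and 145 to 568 with 1 array left out. With no filter they numbered 430, but of 19938 genes, so the larger number of genes accounts for part of that rise. The lower genes (171) numbered 82 with both groups alone, 344 with array weights, 276 with arrays centred on their medians, 317 with the signal spread as a covariate and 261 with that covariate and without array 22, and 136 to 359 with 1 array left out. For the difference between XX and XY embryos the count was 0 under all alternatives run.

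Some list medians near 0 moved under an alternative. For zinc finger genes the SD of the list mean between arrays was 0.03 with an obese mother and 0.10 with an obese father. For all autosomal genes that SD was 0.006 with an obese mother and 0.048 with an obese father. Oocyte genes (0.03) were at -0.018 with arrays centred on their medians, -0.038 with the covariate and -0.030 with the covariate and without array 22, and -0.019 to 0.083 with 1 array left out. FGF, Hippo, Nodal and LIF signalling (0.01) was at -0.043 with centred arrays and 0.063 with a stricter filter, and -0.031 to 0.031 with 1 array left out. All autosomal genes (0.03) were at -0.024 with centred arrays and -0.010 with the covariate, and -0.012 to 0.066 with 1 array left out. With 1 array left out cholesterol synthesis ran from -0.046 to 0.024 and zinc finger genes from -0.030 to 0.081.

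Some named genes turned in sign, and the cause was not tested. With array weights ND3 was 0.050, COX2 0.0023, Krt8 0.098, Pou5f1 0.23, Klf4 -0.015, Gata6 0.11, Pdgfra 0.0040 and Cdc20b -0.14. With the covariate ND3 was 0.13, COX2 0.14, Krt8 0.022, Pou5f1 0.44 and Cdc20b -0.081. With the covariate and without array 22 Pou5f1 was 0.27, Gata6 0.081, Pdgfra 0.039 and Cdc20b -0.085. With quantile normalization ND3 was 0.19 and Pou5f1 0.43, and with centred arrays Igf2r and Cdc20b were both -0.023. With 1 array left out ND3 ran from -0.59 to 0.22, COX2 from -0.43 to 0.15, Krt8 from -0.66 to 0.20, Pou5f1 from -0.56 to 0.60, Klf4 from -0.026 to 0.19 and Gata6 from -0.36 to 0.13. Gata4 ran from -0.027 to 0.28, Sox17 from -0.13 to 0.051, Igf2 from -0.30 to 0.076, Igf2r from -0.21 to 0.45, Cdc20b from -0.15 to 0.16 and Trpm1 from -0.093 to 0.079.

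No paired analysis was possible because the obese-mother and obese-father arrays share no replicate number.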

Other observations

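The remaining lists are given as values. Mitochondrial ribosomal proteins had 57 of 73 tested members below 0 and a median difference of -0.22 (0.08 without array 22), and cell cycle genes had 31 of 38 below 0 and a median of -0.21 (0.07 without array 22). Histone modifiers had a median of -0.12 (-0.03), antioxidant genes -0.10 (0.01), endoplasmic reticulum stress genes -0.08 (0.05) and amino acid response genes -0.05 (-0.09). Insulin, IGF and mTOR genes stood at -0.04 (0.01), interferon and inflammation genes at 0.05 (0.00) and zinc finger genes at 0.05 (-0.03).

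Olfactory and vomeronasal receptor genes, which are silent outside sensory tissue and sperm in textbook accounts, had 213 of 292 tested members above 0 and a median of 0.13 with all arrays, and -0.03 with 125 above 0 without array 22. The difference between the groups also depended on level. When tested genes were ranked by level into 4 equal parts, the dimmest part had 57.6% above 0 with all arrays and 45.2% without array 22, and in the brightest part the shares were 49.2% and 51.7%.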
